A study of Equus caballus with 18 samples.

Results

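MYOM1 (ENSECAG00000013468) and MYOM2 (ENSECAG00000017592) encode myomesin 1 and myomesin 2, structural proteins of the M-band. These 2 genes were taken by identifier from a table of 25239 genes, and their read counts were followed over 18 skeletal muscles. All muscles came from 1 male Jeju horse, a breed of Jeju island in South Korea, and each muscle gave 1 library of total RNA depleted of ribosomal RNA. No treatment was applied, and the tissue was frozen in liquid nitrogen from the hot carcass. The muscles were grouped by position into 6 forelimb muscles, 7 hindlimb muscles, 4 muscles of the girdle and neck and 1 trunk muscle. The proximal forelimb muscles were the long head of the triceps brachii, biceps brachii, infraspinatus and supraspinatus, and the distal ones were the extensor digitorum communis and extensor carpi radialis. The proximal hindlimb muscles were the semitendinosus, gluteus superficialis and the vertebral, middle and caudal parts of the biceps femoris, and the distal ones were the extensor digitorum longus and extensor digitorum lateralis. Rhomboideus, omohyoideus, trapezius and pectoralis major formed the girdle and neck group, and longissimus was the trunk muscle.

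The M-band lies in the middle of the sarcomere, where it links neighbouring thick filaments and holds them in register during contraction. Myomesin 1 is found there in striated muscle fibers of all types, whereas myomesin 2, also called M-protein, is known from fast-twitch fibers and from heart muscle. MYH1, the myosin heavy chain of fast type IIx fibers, and MYH7, the myosin heavy chain of slow type I fibers, served as the references for fiber type. The fast type IIa fibers, with properties between these in the study's account, had no reference gene here. The study displayed MYOM2 among genes of fast-twitch muscle. It also listed MYOM2 among genes higher in its A2 subgroup of muscles than in its A3 subgroup, both described below. The question here was whether each M-band gene followed MYH1 or MYH7 from muscle to muscle.

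Total counts per library lay between 31395013 and 50508515. The single most abundant gene took 21.2% to 39.1% of a library, and the composition factor of TMM, edgeR's scaling between libraries, ranged from 0.809 to 1.44. Levels are given as CPM, the counts of a gene per 1000000 counts of its library after this scaling. With 1 library per muscle and 1 horse, the spread within a group is the spread between different muscles, so that p-values describe these muscles and not horses. The 3 parts of the biceps femoris come from 1 muscle.

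Both genes were abundant in all 18 muscles. MYOM1 ranked between 36th and 79th of the 25239 genes within a library, and MYOM2 between 38th and 128th. MYOM1 had a mean of 1243 ± 356 CPM (SD, n = 18 muscles) with a median of 1341 CPM, and its highest muscle exceeded its lowest by 3.29-fold. MYOM2 had a mean of 757 ± 355 CPM (SD, n = 18 muscles) with a median of 681 CPM, and spanned 6.44-fold. These ranges were narrow beside those of the myosins, since MYH1 spanned 214-fold and MYH7 29.8-fold over the same libraries. The SD of log2 CPM was 0.48 for MYOM1 and 0.59 for MYOM2, against a median of 0.41 over the 14770 genes that passed the filter on low counts. A larger SD was found for 40.6% of those genes in the case of MYOM1 and for 29.9% in the case of MYOM2. Among the 500 most abundant genes, 37.8% varied more than MYOM1 and 20.4% more than MYOM2.

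MYOM1 was highest in the extensor digitorum lateralis at 1785 CPM, followed by the rhomboideus at 1673 CPM and the trapezius at 1658 CPM. It was lowest in the gluteus superficialis at 543 CPM and the vertebral part of the biceps femoris at 611 CPM. These lowest muscles lay in the proximal hindlimb and stood below the next muscle, the biceps brachii at 920.1 CPM. In the proximal forelimb, MYOM1 was at 989.6 CPM in the triceps brachii, 920.1 CPM in the biceps brachii, 1354 CPM in the infraspinatus and 1407.5 CPM in the supraspinatus. The distal forelimb extensors lay above all of these, with 1582 CPM in the extensor digitorum communis and 1467 CPM in the extensor carpi radialis. In the remaining proximal hindlimb muscles, MYOM1 was at 1016.5 CPM in the semitendinosus, 1430.5 CPM in the middle part and 1328 CPM in the caudal part of the biceps femoris. The extensor digitorum longus had 1080.3 CPM, well below its neighbour, the extensor digitorum lateralis. The girdle and neck muscles were divided, with 931 CPM in the omohyoideus and 1379 CPM in the pectoralis major beside the high values of rhomboideus and trapezius. The longissimus, at 1212 CPM, lay near the middle of the order.

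MYOM2 was highest in the rhomboideus at 1905 CPM, far above the extensor digitorum communis at 1071 CPM and the trapezius at 1056 CPM. It was lowest in the gluteus superficialis at 296 CPM, the muscle that was also lowest for MYOM1. In the proximal forelimb, MYOM2 was at 670.02 CPM in the triceps brachii, 457 CPM in the biceps brachii, 692 CPM in the infraspinatus and 901 CPM in the supraspinatus. As for MYOM1, the biceps brachii was the lowest of the 6 forelimb muscles and the extensor digitorum communis the highest. The extensor carpi radialis had 893 CPM. In the proximal hindlimb, MYOM2 was at 610.5 CPM in the semitendinosus and at 554.5, 505 and 715 CPM in the vertebral, middle and caudal parts of the biceps femoris. In the distal hindlimb, it was at 573 CPM in the extensor digitorum longus and 792 CPM in the extensor digitorum lateralis, so that the hindlimb muscle with the most MYOM1 also had the most MYOM2. The omohyoideus had 499 CPM, the pectoralis major 567 CPM and the longissimus 875 CPM. Within the girdle and neck group, MYOM2 thus ran from rank 16 of the 18 muscles to rank 1.

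Exact 95% Poisson intervals of the counts were narrow at these depths, and those of neighbouring muscles in the order overlapped in 3 of 17 pairs for MYOM1 and in 6 of 17 pairs for MYOM2. For MYOM1 the pairs were rhomboideus and trapezius, the middle part of the biceps femoris and supraspinatus, and omohyoideus and biceps brachii. For MYOM2 the interval of the extensor carpi radialis overlapped those of the supraspinatus and the longissimus, which did not overlap each other, and those of the extensor digitorum communis and trapezius overlapped as well. These intervals cover counting error alone, and the spread between repeated samples of 1 muscle is unknown.

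**Figure D1:**
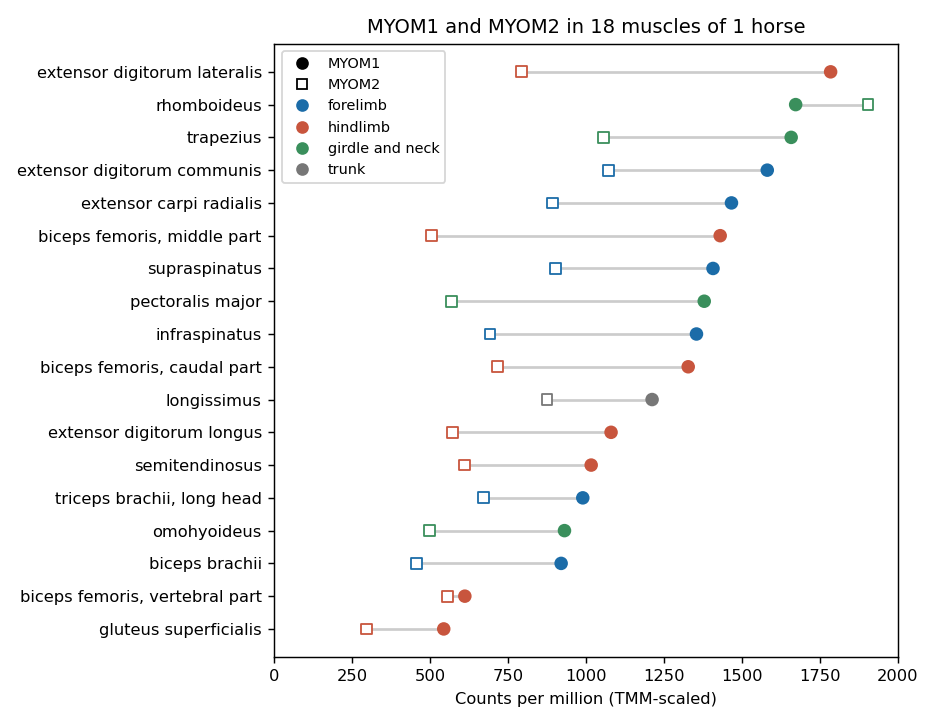
CPM of MYOM1 (filled circles) and MYOM2 (open squares) on the horizontal axis for each of 18 muscles, 1 library each, ordered by MYOM1 and coloured by body region. MYOM1 runs from 543 CPM in the gluteus superficialis to 1785 CPM in the extensor digitorum lateralis, and the square lies right of the circle in the rhomboideus alone.

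The ratio of the counts of MYOM2 to those of MYOM1 does not depend on library size or on TMM, and was used to compare muscles. The 2 genes cannot be ranked against each other by it, since gene lengths were not used here and a longer transcript yields more reads. MYOM1 had more counts than MYOM2 in 17 of 18 muscles. The ratio had a mean of 0.610 ± 0.183 (SD, n = 18 muscles) with a median of 0.573. It was lowest in the middle part of the biceps femoris, with 0.353 MYOM2 counts per MYOM1 count, and highest in the rhomboideus, with 1.14.

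Expressed as a share of the counts of both genes, MYOM2 made up 53.2% in the rhomboideus (exact Clopper-Pearson 95% interval 53.0% to 53.5%). The vertebral part of the biceps femoris followed with 47.6% (interval 47.1% to 48.0%), and the longissimus with 41.9% (interval 41.6% to 42.3%). The lowest shares were 26.1% in the middle part of the biceps femoris (interval 25.7% to 26.4%), 29.1% in the pectoralis major (interval 28.8% to 29.4%) and 30.7% in the extensor digitorum lateralis (interval 30.5% to 31.0%). In the remaining muscles the share lay between 33.2% in the biceps brachii and 40.4% in the triceps brachii and extensor digitorum communis. Neighbours in this order had overlapping intervals in 7 of 17 pairs.

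The parts of the biceps femoris differed widely in the ratio and included the lowest value of the series, with 0.907 in the vertebral, 0.353 in the middle and 0.539 in the caudal part. MYOM1 was the gene that varied more among these parts, since its highest part exceeded its lowest by 2.34-fold, against 1.42-fold for MYOM2. MYH7 varied 3.89-fold, with 2320.4 CPM in the vertebral part against 8867 and 9024 CPM in the others. MYH1 stayed between 10947 and 12223 CPM. No replicate of a part exists, and the part played by sampling position in these differences was not tested.

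**Figure D2:**
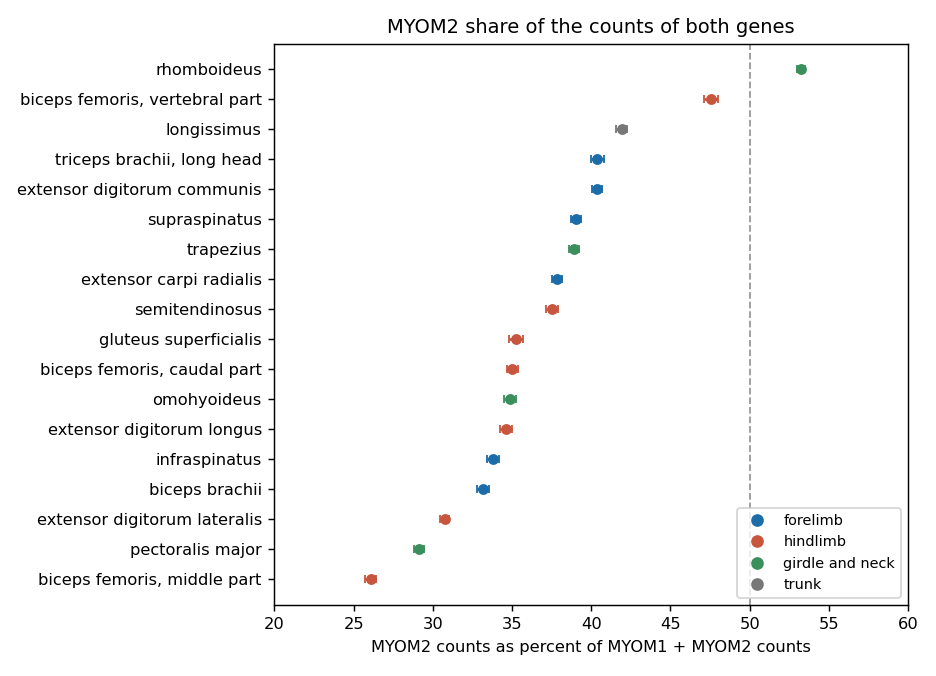
MYOM2 counts as a percent of the counts of MYOM1 and MYOM2 together in each of 18 muscles, with exact 95% intervals of the counting error and colours for body region. The dashed line marks equal counts, and the axis starts at 20%. The rhomboideus at 53.2% lies above the line, and the 3 parts of the biceps femoris lie at 47.6%, 35.0% and 26.1%.

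Over the 18 muscles, both M-band genes correlated positively with MYH7 and negatively with MYH1. These relations were loose, and their size depended on single muscles. Correlations were computed on log2 CPM and are given as a description without p-values, because the muscles come from 1 animal and the genes share library size and scaling within a point. For MYOM1, Pearson's r with MYH7 was 0.52 and Spearman's rho was 0.71 (n = 18 muscles), whereas r with MYH1 was -0.28 and rho was -0.24. For MYOM2, r with MYH7 was 0.45 and rho was 0.64 (n = 18 muscles), whereas r with MYH1 was -0.38 and rho was -0.09. An r with MYH7 at least as high was reached by 6.91% of the other 14769 genes in the case of MYOM1 and by 10.7% in the case of MYOM2. For MYH1, the corresponding shares were 78.8% and 86.5%. MYH1 and MYH7 themselves had r = -0.59 and rho = -0.48 (n = 18 muscles). Their coding sequences resemble each other and those of other myosin heavy chains, and reads could have been split between such copies in the counting.

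The muscles richest in MYH7 showed this pattern directly. The trapezius and rhomboideus had 26283 and 25655 CPM of MYH7 with 165 and 134 CPM of MYH1, and ranked among the top 3 muscles for both M-band genes. The extensor digitorum communis, next in MYH7 with 15287 CPM and 301 CPM of MYH1, was 4th for MYOM1 and 2nd for MYOM2. Of the 9 muscles with the most MYH7, 7 lay above the median of MYOM1 and 8 above that of MYOM2. Of the 9 muscles with the most MYH1, 4 lay above the median of MYOM1 and 4 above that of MYOM2. In the omohyoideus, MYH7 made up 96.7% of the counts of both myosins, but its level of 8485 CPM was below the median of 8945.5 CPM, and MYOM1 ranked 15th and MYOM2 16th of the 18 muscles.

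The extensor carpi radialis went furthest against the pattern. It had the least MYH7, 881 CPM, and the most MYH1, 28709 CPM, so that MYH7 made up 2.98% of the counts of both myosins. In spite of this it ranked 5th for both M-band genes, with 1467 CPM of MYOM1 and 893 CPM of MYOM2. It lay 0.99 above the line fitted on MYH7 for log2 CPM of MYOM1 and 1.08 above that of MYOM2, the largest distances of these fits. Without this library, r with MYH7 was 0.87 for MYOM1 and 0.76 for MYOM2 (n = 17 muscles). Other single libraries lowered it, to 0.41 for MYOM1 without the vertebral part of the biceps femoris and to 0.31 for MYOM2 without the rhomboideus. Without the 2 muscles farthest from the median of MYH7, the extensor carpi radialis and the vertebral part of the biceps femoris, r was 0.83 and 0.85 (n = 16 muscles). The rhomboideus and trapezius were farthest from the median of MYH1, and without them r with MYH1 was -0.06 for MYOM1 and 0.05 for MYOM2 (n = 16 muscles). Without the rhomboideus alone, r of MYOM2 with MYH1 was -0.14. Within the limbs, which hold neither muscle, r with MYH1 was -0.21 in the forelimb and -0.26 in the hindlimb for MYOM1, and -0.24 and -0.07 for MYOM2.

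Within the body regions, the relation to MYH7 differed in value. In the 7 hindlimb muscles, r with MYH7 was 0.92 for MYOM1 and 0.58 for MYOM2. In the 6 forelimb muscles, which include the extensor carpi radialis, r was -0.05 and -0.08. The girdle and neck group was too small for such a value, and the difference between regions was not tested.

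As linear fits, MYH7 alone accounted for 27.3% of the variance in log2 CPM of MYOM1 and for 19.9% of that of MYOM2. Adding MYH1 raised these shares to 27.4% and 21.9%. MYH1 alone accounted for 7.63% of the variance for MYOM1 and for 14.2% for MYOM2. The slopes on MYH7 were shallow, with 0.21 log2 units of MYOM1 and 0.22 log2 units of MYOM2 per log2 unit of MYH7.

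The levels were set beside the TMM factor as well. The r of log2 CPM with the log2 TMM factor was -0.62 for MYOM1 over all muscles and -0.94 within the hindlimb. For MYOM2 it was -0.33 and -0.78. CPM is divided by this factor, so that a negative r can arise in part from the calculation itself. The part of library composition in the relation to MYH7 was not tested. The r of MYOM1 with MYH7 was 0.60 with total counts in place of TMM and 0.53 with DESeq2's size factors, and that of MYOM2 was 0.47 and 0.45. The r with MYH1 was less stable, at -0.61 for MYOM1 and -0.56 for MYOM2 with total counts. In these whole-muscle samples, fewer fibers of a type and less RNA per fiber cannot be told apart.

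**Figure D3:**
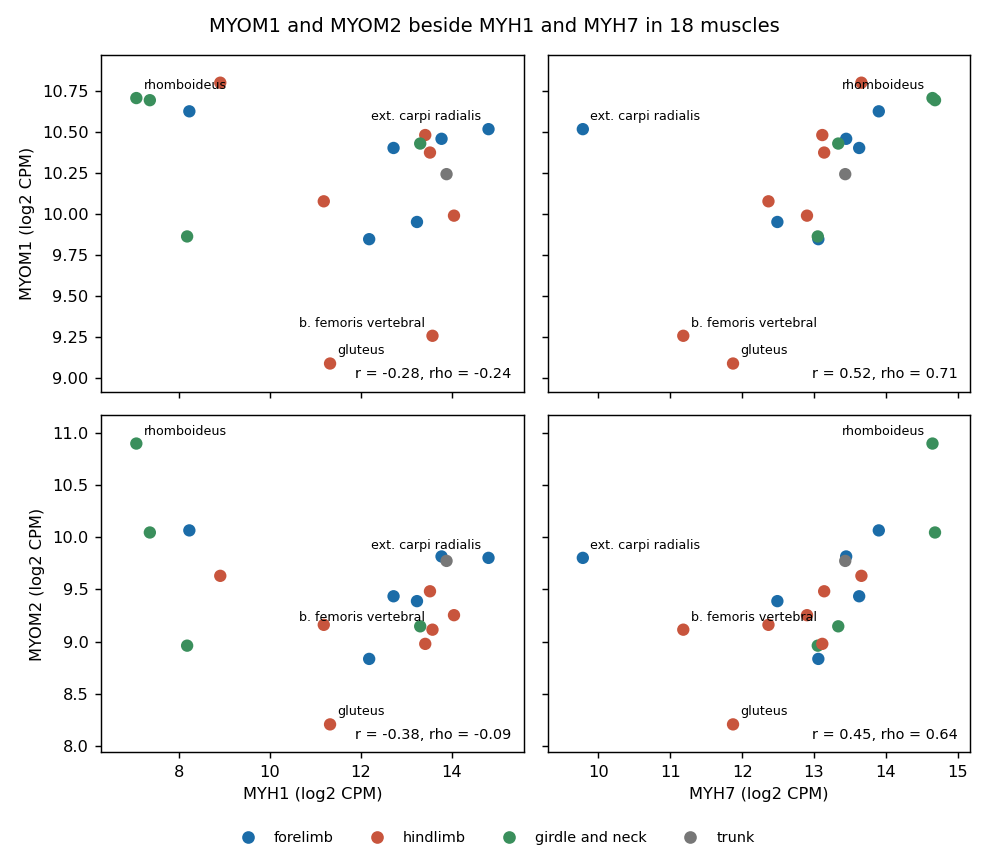
Log2 CPM of MYOM1 (upper panels) and MYOM2 (lower panels) against log2 CPM of MYH1 (left) and MYH7 (right), 1 point per muscle, 18 muscles, coloured by body region. On the right, points go up together from the gluteus superficialis to the rhomboideus, and the extensor carpi radialis lies apart at the lowest MYH7 level. On the left, points do not go up together, and r is -0.28 and -0.38.

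On log2 CPM over all 18 muscles, MYOM1 and MYOM2 had a higher r with each other than with either myosin. The r between them was 0.75 and rho was 0.78 (n = 18 muscles), and 0.244% of the other 14769 genes had an r with MYOM2 at least as high as that of MYOM1. The r was 0.90 within the forelimb and 0.75 within the hindlimb, and 0.64 without the rhomboideus and gluteus superficialis. On linear CPM this order did not hold, since r was 0.66 between the M-band genes against 0.67 between MYOM1 and MYH7 and 0.75 between MYOM2 and MYH7. Without the extensor carpi radialis, r on log2 CPM was 0.74 between the M-band genes against 0.87 between MYOM1 and MYH7 and 0.76 between MYOM2 and MYH7. Among the other 11200 genes that reached 10 or more counts in all libraries, MYOM2 was 132nd in likeness to MYOM1, and MYOM1 was 33rd in likeness to MYOM2. By the same measure MYH7 was 868th for MYOM1 and 1090th for MYOM2. MYH1 was 8484th for MYOM1 and 9869th for MYOM2. The genes most like MYOM1 were ENSECAG00000024360 with r = 0.91 (mean 11.4 CPM) and ENSECAG00000009156 with r = 0.91 (mean 12.7 CPM). Those most like MYOM2 were ENSECAG00000007905 with r = 0.84 (mean 4.98 CPM) and ENSECAG00000008046 with r = 0.83 (mean 133 CPM). These identifiers could not be paired with names, and the order was made over the 18 muscles of this horse.

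The ratio of MYOM2 to MYOM1 showed no steady relation to the myosins. Its log2 value had r = -0.18 and rho = 0.15 (n = 18 muscles) with the log2 ratio of MYH1 to MYH7, and r was 0.14 without the rhomboideus. Different ratios stood beside like myosin shares. The rhomboideus, with the highest ratio, and the extensor digitorum lateralis, with rank 16 of 18, had MYH7 shares of 99.5% and 96.4%. The vertebral part of the biceps femoris, with the next highest ratio, had a MYH7 share of 15.96%. Within the 7 hindlimb muscles r was 0.56, and within the 6 forelimb muscles it was -0.08. With MYH7 alone, the log2 ratio had r = 0.03 over all muscles, -0.77 within the hindlimb, -0.09 within the forelimb and 0.41 without the extensor carpi radialis and the vertebral biceps femoris.

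Body regions were compared next, to see whether the M-band genes differed with the position of a muscle. In the forelimb, MYOM1 had a mean of 1287 ± 269 CPM (SD, n = 6), with a median of 1381 CPM, against 1113.5 ± 444 CPM in the hindlimb (SD, n = 7), with a median of 1080.3 CPM. MYOM2 had 781 ± 217 CPM in the forelimb, with a median of 792 CPM, against 578 ± 159 CPM in the hindlimb, with a median of 573 CPM. The regions overlapped for both genes, and the range of MYOM1 in the hindlimb enclosed that of the forelimb. By edgeR's quasi-likelihood test with Benjamini-Hochberg adjustment over 14770 genes, the log2FC of forelimb over hindlimb was 0.21 for MYOM1 (SE 0.26, 95% interval -0.34 to 0.76, adjusted p = 0.797). For MYOM2 it was 0.43 (SE 0.30, 95% interval -0.19 to 1.06, edgeR adjusted p = 0.592). Genes were called at an adjusted p below 0.05 with an absolute log2FC above 0.58, which 0.0135% of all genes tested met in this comparison. Neither M-band gene was called, by edgeR or by DESeq2, nor did either reach an unadjusted p below 0.05 with edgeR.

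Girdle and neck muscles had a mean of 1410.3 ± 347 CPM for MYOM1 (SD, n = 4) against 1193 ± 370.1 CPM in the 13 limb muscles. For MYOM2 the means were 1007 ± 648 and 671 ± 208 CPM. The log2FC of girdle and neck over limb was 0.24 for MYOM1 (SE 0.27, 95% interval -0.32 to 0.80, edgeR adjusted p = 0.864) and 0.58 for MYOM2 (SE 0.30, 95% interval -0.04 to 1.20, edgeR adjusted p = 0.621). Neither was called by edgeR or DESeq2, with 0.0203% of all genes called by edgeR, and the unadjusted edgeR p of MYOM2 was 0.0634. The value of MYOM2 rested on the rhomboideus, without which its log2FC was 0.08. The ranges of the groups overlapped for both genes. For MYH7, the same contrast gave a log2FC of 1.14 (SE 0.48, edgeR adjusted p = 0.522), and for MYH1 it gave -1.80 (SE 1.14, edgeR adjusted p = 0.715). The value of MYH1 was -5.57 without the pectoralis major (edgeR adjusted p = 0.123).

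Distal limb muscles, the extensors of the carpus and digits, had 1478 ± 296 CPM of MYOM1 (SD, n = 4) against 1067 ± 337 CPM in the proximal limb (SD, n = 9). MYOM2 had 832 ± 208 CPM in the distal limb against 600.1 ± 174 CPM in the proximal limb. The lowest distal muscle for both genes was the extensor digitorum longus, and it lay within the proximal range. The log2FC of distal over proximal was 0.47 for MYOM1 (SE 0.26, 95% interval -0.07 to 1.01, edgeR adjusted p = 0.232) and 0.47 for MYOM2 (SE 0.31, 95% interval -0.18 to 1.12, edgeR adjusted p = 0.322). This comparison called 10.3% of all genes, and neither M-band gene was among them by edgeR or by DESeq2. The myosins did not pass the test either, with a log2FC of -0.32 for MYH1 (SE 1.08, edgeR adjusted p = 0.870) and 0.15 for MYH7 (SE 0.54, edgeR adjusted p = 0.879). Without the extensor carpi radialis, the value of MYH1 was -3.26 (edgeR adjusted p = 0.0818) and that of MYH7 was 0.53. Without the extensor digitorum communis, the value of MYH7 was -0.29. The distal-to-proximal difference was also compared between limbs in an edgeR fit of 6 groups, which was added after the values had been seen. The difference between limbs was -0.16 for MYOM1 (SE 0.55) and 0.18 for MYOM2 (SE 0.64), both with an edgeR adjusted p of 1.

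**Figure D4:**
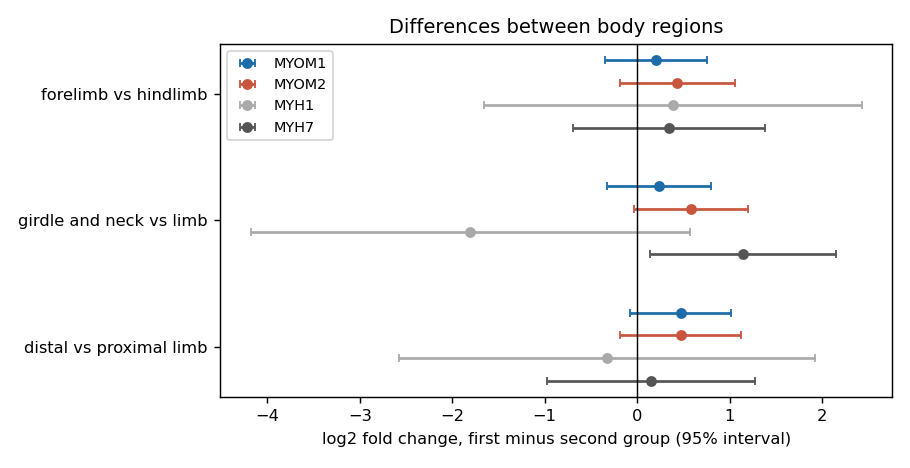
Log2FC from edgeR with its 95% interval for MYOM1, MYOM2, MYH1 and MYH7 in 3 comparisons of body regions, first group over second, with a vertical line at 0. The intervals of MYOM1 and MYOM2 include 0 in all 3 comparisons, and MYH1 has the widest interval in each.

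The log2 ratio of MYOM2 to MYOM1 was compared between the same regions by two-sided exact permutation tests. It had a mean of -0.74 ± 0.20 in the forelimb (SD, n = 6) and -0.89 ± 0.42 in the hindlimb (SD, n = 7), a difference of 0.15 (exact p = 0.455, adjusted over 3 comparisons 0.756). Girdle and neck muscles had a mean of -0.66 ± 0.62 against -0.82 ± 0.33 in limb muscles, a difference of 0.16 (exact p = 0.504, adjusted 0.756), which was -0.12 without the rhomboideus. Distal muscles had a mean of -0.84 ± 0.26 against -0.81 ± 0.37 in proximal muscles, a difference of -0.03 (exact p = 0.895, adjusted 0.895). The regions overlapped in all 3 comparisons. The difference between regions was thus within the spread between muscles for the ratio.

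The study had also sorted the muscles into subgroups by clustering these counts, and levels in them are a description of samples the counts themselves arranged. In its A2 subgroup, formed of the rhomboideus, trapezius and extensor digitorum communis, MYOM1 lay between 1582 and 1673 CPM and MYOM2 between 1056 and 1905 CPM. In its B1 subgroup, formed of the pectoralis major and 4 proximal hindlimb muscles, MYOM1 lay between 543 and 1430.5 CPM and MYOM2 between 296 and 610.5 CPM. In its A1 subgroup, formed of the triceps brachii, infraspinatus, supraspinatus and longissimus, MYOM1 lay between 989.6 and 1407.5 CPM and MYOM2 between 670.02 and 901 CPM. The remaining subgroups held 2 muscles each. In A3, the biceps brachii and the caudal biceps femoris, MYOM1 was at 920.1 and 1328 CPM and MYOM2 at 457 and 715 CPM. In B2, the omohyoideus and extensor digitorum lateralis, MYOM1 was at 931 and 1785 CPM and MYOM2 at 499 and 792 CPM. In B3, the extensor carpi radialis and extensor digitorum longus, MYOM1 was at 1467 and 1080.3 CPM and MYOM2 at 893 and 573 CPM. The range of MYOM1 in B2 enclosed that in A2.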

How the data were processed

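The authors removed ribosomal RNA, sequenced TruSeq libraries as paired reads of 101 bp on an Illumina HiSeq 2000, trimmed them, aligned them with STAR (version 2.5.2b) in 2 passes to the EquCab2 genome, and deposited unnormalized read counts per Ensembl gene for 18 muscles. Strand use in the counting is not given in the sources used here. The count table carries identifiers without names; the names of MYOM1, MYOM2, MYH1 and MYH7 come from earlier work on these data and could not be checked, because the reference table at hand pairs 0 identifiers with names. For the same reason the 77 genes of the lists for M-band partners, fiber types and other cell types were not counted, muscle identity was not checked against markers, and no sequences or gene lengths are given. The genes and lists were chosen with earlier results of these data known.

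Groups follow the muscle names in the labels; muscle 18 is labelled pectoralis major, while a map of the study names it pectoralis ascendens. Total counts per library were 31395013 to 50508515, and intervals reflect counting error alone, because without molecular identifiers a read is not an independent molecule. CPM used edgeR's TMM (edgeR 4.0.16, R 4.3.3), with 0.5 in place of a count of 0 before log2. Genes passing filterByExpr (14770, a mild filter because the trunk group holds 1 library) were tested with glmQLFit and glmQLFTest, adjusting p over all of them after Benjamini and Hochberg, with all 18 libraries in 4 groups sharing 1 estimate of the spread. The SE was taken from the log2FC and its F statistic, and the 95% interval from the t distribution. The threshold for a call was an adjusted p under 0.05 together with an absolute log2FC over 0.58. Named genes were the 4 above and, for each M-band gene, those with the highest r, at most 2 by identifier. Exact permutation tests used scipy 1.17.1. On simulated counts for distal vs proximal limb, edgeR called 125 of 200 genes changed by a log2FC of 1 (among 14387 genes) and 192 of 200 changed by 2 (among 14453 genes). Alternatives were DESeq2 1.42.0, its size factors, total counts, no filter or at least 10 counts in every library, fits of the compared groups and a robust fit. Other scales were used for correlations, and the biceps femoris was taken as 1 value for correlations and ratios alone. Each muscle was also left out in turn.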

Additional observations from a re-analysis of the deposited data

Results flagged for a closer look

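In the forelimb, the log2 CPM of MYH7 was 9.78 in the extensor carpi radialis, which lay apart from the other 5 forelimb muscles by Dixon's test of the lowest value. This is the library in which MYOM1 and MYOM2 were farthest from their fitted lines on MYH7. The gap was 0.657 of the range, against a critical value of 0.625. The test was run on the levels of MYOM1, MYOM2, MYH1 and MYH7 and on the M-band ratio in the forelimb, hindlimb and girdle and neck. Chance flags about 1 in 20 groups, so that 1 flag can arise by chance. The levels and ratio of MYOM1 and MYOM2 gave no such value in the regions tested.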

How the results depend on the processing

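The log2FC of MYOM1 and MYOM2 kept its direction and stayed uncalled in all 3 comparisons under each of 25 alternatives per comparison. Its size depended on single muscles: for MYOM1, forelimb vs hindlimb ran from 0.09 (without the gluteus superficialis) to 0.36 (without the extensor digitorum lateralis), and girdle and neck vs limb from 0.15 (without the trapezius) to 0.39 (without the omohyoideus). The smallest adjusted p these gave was 0.176, for MYOM1 in distal vs proximal limb with DESeq2. None of these alternatives merged the 3 parts of the biceps femoris, which counted as separate muscles in these fits. No paired analysis was possible because all libraries come from 1 horse, with 1 library per muscle. The counts of genes called moved more. With DESeq2, 114 genes were called for forelimb vs hindlimb and 45 for girdle and neck vs limb, against 2 and 3 with edgeR. With at least 10 counts in every library edgeR called 0 in both (1583 and 1028 at an unadjusted p below 0.05), and without TMM it called 806 rather than 1519 for distal vs proximal limb. Leaving out 1 muscle gave 2 to 169 genes for forelimb vs hindlimb (169 without the extensor carpi radialis, 18 without the caudal biceps femoris), 1 to 14 for girdle and neck vs limb (14 without the pectoralis major) and 660 to 1642 for distal vs proximal limb (660 without the extensor digitorum lateralis). The cause was not tested.

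The r of MYOM1 with MYH1 was -0.61 without TMM, -0.51 with totals free of the most abundant gene and -0.057 without the 2 farthest muscles. The r with MYH7 was -0.049 (MYOM1) and -0.076 (MYOM2) within the forelimb and 0.92 (MYOM1) within the hindlimb. That of MYOM2 was 0.85 without the 2 farthest muscles. With the biceps femoris averaged, the r with MYH7 was 0.43 for MYOM1 and 0.45 for MYOM2. The r of MYOM2 with MYH1 was -0.56 without TMM and -0.51 with totals free of the most abundant gene. It was 0.051 without the 2 farthest muscles and -0.072 within the hindlimb. The r of the M-band ratio with the ratio of MYH1 to MYH7 turned positive as rho (0.15), on linear CPM (0.044), without the 2 farthest muscles (0.25) and within the hindlimb (0.56), and ran from -0.33 to 0.14 with 1 muscle left out. With MYH1 alone, its r of -0.23 became 0.063 as rho, 0.15 without the 2 farthest muscles and 0.32 within the hindlimb, with a range of -0.33 to 0.061. With MYH7 alone, its r of 0.03 became -0.086 within the forelimb and -0.77 within the hindlimb, but 0.41 without the 2 farthest muscles, 0.35 on linear CPM and 0.26 with the biceps femoris averaged, with a range of -0.24 to 0.22. With 1 muscle left out, the difference in log2 ratio ran from 0.045 (without the middle biceps femoris) to 0.27 (without the vertebral part, exact p = 0.0779) for forelimb vs hindlimb, from -0.12 (without the rhomboideus) to 0.37 (without the pectoralis major) for girdle and neck vs limb and from -0.12 to 0.083 for distal vs proximal limb. With the biceps femoris as 1 value, the forelimb vs hindlimb difference was 0.17 (exact p = 0.167). The log2FC of MYH1 ran from -0.21 to 0.67 for forelimb vs hindlimb, from -5.57 to -1.41 for girdle and neck vs limb and from -3.26 to 0.071 for distal vs proximal limb, and that of MYH7 from -0.29 to 0.53 for the latter. The counting intervals of MYOM1 and MYOM2 were narrow at this depth, and the error between libraries of 1 muscle or between horses was not measured.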
